A study of Mus musculus with 4 samples.

Results

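The genes described here are 9 chemokine receptors that steer lymphocytes and myeloid cells to and within the gut: Ccr1, Ccr2, Ccr6, Ccr7, Ccr9, Cxcr3, Cxcr4, Cxcr5 and Cxcr6. They were taken by gene identifier from the 31950 identifiers that both gene expression libraries list, and all 9 carry the same identifier and symbol in both. Both libraries measured RNA in single cells of the small intestine's lamina propria, taken from WT and A20ZF7 mice at 12 weeks of age. A20ZF7 mice carry germline point mutations in the zinc finger of A20 that binds linear ubiquitin chains, so every cell type carries them. Each genotype is 1 library that pools 2 mice, from 60000 collected cells that had been enriched for T cells and innate lymphoid cells (ILCs) by negative selection. Cells of each animal carried a hashtag antibody, numbers 7 and 8 in WT and 9 and 10 in A20ZF7.

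Chemokine receptors are G protein-coupled receptors that move a cell up a gradient of a small secreted protein, the chemokine. CCR9 binds CCL25 from the small intestinal epithelium and, with the integrin α4β7, marks lymphocytes that home to the small bowel. CCR6 (ligand CCL20), CXCR6 (CXCL16), CXCR3 (CXCL9 and CXCL10) and CXCR4 (CXCL12) place cells within mucosal tissue, CCR1 and CCR2 bring myeloid and effector cells to inflamed sites, and CCR7 (CCL19, CCL21) and CXCR5 (CXCL13) direct cells to lymphoid organs.

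The genes are not spread evenly over the genome. In the GRCm38.p6 build (mm10) 5 of the 9 lie on chromosome 9. Of these, Ccr9 (chr9:123767211-123783457), Cxcr6 (chr9:123806477-123811754), Ccr1 (chr9:123962126-123968692) and Ccr2 (chr9:124101918-124109140) stand within 341.9 kb of each other, with Xcr1 and Ccr3 in the same stretch or next to it. Only 23.0 kb separate the end of Ccr9 from the start of Cxcr6. The 250 bases before the RefSeq start sites of Ccr9, Cxcr6 and Ccr6 are shown because Ccr9 and Cxcr6 are neighbours and all 3 were above the stromal level in Th17-like cells of A20ZF7 (for Ccr6 the first of 2 RefSeq start sites). Capitals mark matches, on either strand, to TGTGGT (the core bound by RUNX factors) or AGGTCA (the core bound by ROR factors), and an NF-κB site was searched as well.
Ccr9 (chr9:123766961-123767210, plus strand): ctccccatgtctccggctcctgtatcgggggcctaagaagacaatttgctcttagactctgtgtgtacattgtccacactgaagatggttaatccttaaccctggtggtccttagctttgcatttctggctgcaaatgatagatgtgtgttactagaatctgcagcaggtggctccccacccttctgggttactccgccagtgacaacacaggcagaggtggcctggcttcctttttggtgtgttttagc
Cxcr6 (chr9:123806227-123806476, plus strand): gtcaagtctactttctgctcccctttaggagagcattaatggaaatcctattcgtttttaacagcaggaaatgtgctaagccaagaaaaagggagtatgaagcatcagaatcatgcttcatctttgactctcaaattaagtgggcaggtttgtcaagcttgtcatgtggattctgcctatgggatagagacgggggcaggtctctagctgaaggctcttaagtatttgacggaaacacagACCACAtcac
Ccr6 (chr17:8235793-8236042, plus strand): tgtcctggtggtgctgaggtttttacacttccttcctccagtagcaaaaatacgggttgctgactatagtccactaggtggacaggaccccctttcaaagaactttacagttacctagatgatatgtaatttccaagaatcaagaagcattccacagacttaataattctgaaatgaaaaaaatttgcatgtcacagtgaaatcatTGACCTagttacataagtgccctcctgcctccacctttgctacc
Cxcr6 held the RUNX core 10 bases before the start site and Ccr6 the ROR core 44 bases before it, both on the opposite strand, and the Ccr9 window held none of the 3 motifs. The window before the other Ccr6 start site (chr17:8242276-8242525), not shown, held none of them either. Among the receptors whose windows are not shown, Ccr1 and Cxcr3 held the RUNX core. Over all 32817 promoters of the same length, 14% hold the RUNX core, 14% the ROR core and 0.357% the NF-κB site. A match is a description of letters, not a site shown to be used.

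After filtering, 14734 cells remained in WT and 43218 in A20ZF7, at median depths of 1059 and 853 UMIs (unique molecular identifiers, each 1 captured RNA molecule). A level here is the UMIs of a gene summed over the cells of a class, divided by all UMIs of that class and scaled to counts per 1e6 (CPM), and the values in parentheses after it are the bounds of a 95% interval that covers counting error only. With 1 library per genotype there is no replicate of a genotype and no test between them. A receptor was called between genotypes where the levels differed at least 2-fold, the interval of the ratio excluded 1 and the higher genotype had at least 20 UMIs. Classes are named from marker genes, and "like" marks that these names were rebuilt here. The Th1 or NKT-like cluster was led by Il12rb2 and the heat shock genes Hspa1a and Hspa1b, and the macrophage or monocyte-like cluster by S100a9 and S100a8. Both S100a9 and S100a8 are on the granulocyte marker list. In all cells they had 0 and 3 UMIs in WT and 232 and 160 in A20ZF7. With a limit of 5000 genes per cell in place of 2500, a cluster led by them was named granulocyte-like (51 WT and 382 A20ZF7 cells). The part of granulocytes in the levels of the macrophage or monocyte-like class was not tested. The T cell class held 2315 WT and 15807 A20ZF7 cells, the innate lymphoid class 2957 and 5652, and the myeloid class 190 and 907. The B lineage class held 573 and 2199 cells and is called plasma-like here. Mature B cells were nearly absent: Ms4a1 (CD20) had 3 UMIs in all WT cells and 20 in all A20ZF7 cells, while Jchain had 102562 and 111687. Cluster 13 of the class, with Gcg among its leading genes, held 174 WT and 1294 A20ZF7 cells at a median of 1021 UMIs. Cluster 15 held 399 and 905 at a median of 2042 UMIs. The symbols listed for the 2 libraries differ for 1905 shared identifiers, and 1746 identifiers are listed for WT alone and 335 for A20ZF7 alone, so the gene annotations behind the counts differ. The part of that difference in the ratios was not tested.

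Receptor RNA was also counted in stromal cells (6015 WT and 13325 A20ZF7), which were used as the measure of receptor RNA from outside a cell's own class, such as free RNA. Cells with both hashtags could be removed in WT alone, and the part of doublets in the stromal levels was not tested. In them the level of 7 of the 9 receptors was called higher in A20ZF7 than in WT, against 7.69% of 13996 genes, and none lower, where 4.64% were. For Ccr9 it was 55.3 CPM (50.2 to 60.8) in WT and 179 CPM (173 to 186) in A20ZF7. For Cxcr4 it was 12.8 CPM (10.5 to 15.6) and 64 CPM (60.2 to 68). T cell marker genes moved the same way in these stromal cells, from 381 to 1228 CPM summed over the list. The stromal level of the same library is therefore given beside the levels below. This level was not even within WT. Stromal cells with a hashtag call had Ccr9 at 90.2 CPM in mouse 1 and 109 CPM in mouse 2, both above the 55.3 CPM of all WT stromal cells. For Cxcr4 the 2 mice had 12.2 and 21.5 CPM beside 12.8 CPM. The part of this unevenness in the stromal calls and in the ratios with the stromal level subtracted was not tested.

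Counted over the lineages, 4 receptors (Ccr1, Ccr6, Cxcr4 and Cxcr5) were called higher in A20ZF7 T cells, where 4.38% of 11859 compared genes were, and 1 (Cxcr3) lower, where 2.72% were. In ILCs 2 of 9 (Ccr6 and Cxcr4) were called higher against 5.1% of 10539 genes, and none lower, where 2.86% were. In plasma-like cells 7 of 8 compared receptors were called higher against 32.1% of 10070 genes and none lower, where 1.4% were. Within plasma-like cluster 13, 6 of 8 were called higher against 11.6% of 8920 genes. Within cluster 15, 6 of 6 were, against 34.2% of 6285. None was called lower in either, where 4.64% and 1.65% were. In myeloid cells 1 of 7 (Ccr6, from 2 WT UMIs and 33 A20ZF7 UMIs) was called higher against 6.49% of 7045 genes and none lower, where 2.54% were. The receptors called higher in T cells were among the 7 called higher in stromal cells. Plasma-like cells had T cell marker genes at 281 CPM summed in WT and 1202 CPM in A20ZF7, and stromal marker genes at 1498 and 2735 CPM. Their Ccr9 level was 51.0 CPM beside 55.3 CPM in stromal cells of WT and 185 CPM beside 179 CPM in those of A20ZF7, and with the stromal level subtracted none of the 7 calls remained. In ILCs T cell marker genes stood at 1156 and 1767 CPM. The part of these RNAs in the ratios was not tested.

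Within the named T cell classes, CD8 T-like cells had 3 of 9 compared receptors called higher (Ccr2, Ccr6 and Cxcr4, against 3.9% of 8479 genes) and dividing T cells 3 of 9 (Ccr1, Ccr2 and Ccr6, against 2.49% of 9577). Called lower was Ccr7 in naive or central memory T-like cells (1 of 8 receptors, 1.32% of 7878 genes), and Cxcr3 in γδ T-like cells (1 of 5, 3.04% of 3452) and in Th1 or NKT-like cells (1 of 6, 1.96% of 5091). In Th17-like and Treg-like cells 8 receptors each could be compared and none was called, with 52 and 100 WT cells behind the values. Few genes of any kind were called there. In Th17-like cells 0.507% of 8687 genes were higher and 1.65% lower, and in Treg-like cells 1.37% and 1.62% of 7599. ILC2-like cells had 4 of 8 called higher (Ccr2, Ccr6, Ccr7 and Cxcr4, against 5.54% of 8731 genes), but the genotypes lay mostly in different ILC2-like clusters. The cluster led by Lgmn and Pla2g7 held 1252 WT and 49 A20ZF7 cells, and none of its 6 compared receptors was called (2.37% of 7131 genes were higher). The cluster led by Hes1 and Hs3st1 held 394 WT and 2268 A20ZF7 cells, and 2 of 8 were called higher in it (Ccr6, from 1 WT UMI, and Ccr9, against 4.39% of 8442 genes), while Ccr2, Ccr7 and Cxcr4 were not. ILC3-like cells had 1 of 9 called higher (Ccr1, against 5.25% of 9320) and 1 lower (Cxcr3, against 2.58%). Macrophage or monocyte-like cells had 1 of 5 called higher (Ccr9, against 6.24% of 4516) and dendritic cell-like cells 2 of 4 (Ccr7 and Ccr9, against 3.99% of 2330), the latter from 15 WT cells.

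Ccr9, the receptor for epithelial CCL25, had 2742 UMIs in all WT cells and 14608 in all A20ZF7 cells, and every named T cell and ILC class lay above the stromal level of its library. In WT it was highest in a small cluster led by Siglech, at 831 CPM (677 to 1010), followed by Th17-like cells at 666 CPM (443 to 963) and Treg-like cells at 531 CPM (398 to 694). These 3 intervals overlap, and the Th17-like value rests on 52 cells and 28 UMIs. In A20ZF7 the Th17-like cells led with 825 CPM (791 to 861), then the Siglech-led cluster with 737 CPM (641 to 842) and Th1 or NKT-like cells with 595 CPM (514 to 686). The Th17-like and Siglech-led intervals overlap, and at resolution 0.4 the Siglech-led cluster was the highest in A20ZF7. CD8 T-like cells were the lowest T cell class in A20ZF7 with 286 CPM (266 to 308), and γδ T-like cells in WT with 256 CPM (201 to 321). A Ccr9 UMI was found in 38.3% of A20ZF7 Th17-like cells at a median depth of 579 UMIs and in 16.2% of A20ZF7 stromal cells at 1042 UMIs. After every cell was thinned to 500 UMIs, which left out 1348 of 4039 Th17-like cells, the shares were 32.5% and 6.86%.

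The Siglech-led cluster had 75 WT and 238 A20ZF7 cells. Siglech, Cox6a2, Klk1 and Ly6d were among its leading genes, and it takes no cell type name here. A Ccr9 UMI was found in 62.7% of its WT cells and 51.3% of its A20ZF7 cells. Its Ccr9 level differed between the WT mice, with 1007 CPM from 53 UMIs in mouse 1 and 508 CPM from 22 UMIs in mouse 2, a ratio of 0.505 (0.292 to 0.845).

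Between genotypes Ccr9 in T cells was 354 CPM (330 to 380) in WT and 496 CPM (484 to 507) in A20ZF7, a ratio of 1.40 (1.30 to 1.51) that stays under the 2-fold limit. With the stromal level subtracted the ratio was 1.06. In ILC2-like cells it was 332 CPM (306 to 360) and 485 CPM (457 to 514), and in ILC3-like cells 269 CPM (242 to 297) and 302 CPM (283 to 323). Neither ratio, 1.46 and 1.12, passed 2-fold. The ILC2-like clusters differed, however: Ccr9 was 134 CPM in WT and 483 CPM in A20ZF7 in the Hes1-led cluster, a ratio of 3.61 (2.74 to 4.83) from 54 and 1123 UMIs, and 388 and 586 CPM in the Lgmn-led cluster, a ratio of 1.51. The genotypes thus compare a WT class mostly of the latter with an A20ZF7 class mostly of the former. Among classes, a ratio past 2-fold came from plasma-like cells, 51.0 against 185 CPM, from macrophage or monocyte-like cells, 55.4 against 232 CPM, and from dendritic cell-like cells, 51.6 CPM from 2 UMIs against 208 CPM. The stromal levels of the same libraries were 55.3 and 179 CPM, close to the WT values of all 3 classes.

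Cxcr6, which holds resident T cells and ILCs at CXCL16-rich sites, was highest in γδ T-like cells in both genotypes, at 816 CPM (716 to 926) in WT and 687 CPM (608 to 774) in A20ZF7. ILC3-like cells had 549 CPM (511 to 589) and 515 CPM (489 to 542), and Th17-like cells 666 CPM (443 to 963) and 444 CPM (419 to 470). Treg-like cells were the lowest T cell class in both, at 120 CPM (62.1 to 210) and 182 CPM (162 to 204), against stromal levels of 65.5 and 119 CPM. The WT interval of Th17-like cells, from 28 UMIs, spans that of γδ T-like cells, so WT does not order these classes. With a limit of 5000 genes Th17-like cells were the highest in WT. γδ T-like cells with a Cxcr6 UMI made up 49.0% in WT and 38.1% in A20ZF7, and after thinning 30.2% and 26.9%, against 2.43% and 5% of stromal cells. No T cell or ILC class passed 2-fold between genotypes for Cxcr6, whereas plasma-like cells did, from 73 and 387 UMIs, with both levels below those of stromal cells. The ratio was 0.809 (0.750 to 0.875) in T cells and 0.938 (0.876 to 1) in ILCs.

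Ccr6, a receptor of Th17 cells, memory CD4 T cells and ILC3s, had 104 CPM (90.4 to 119) in naive or central memory T-like cells of A20ZF7, the highest of its classes, and 70.6 CPM (60.9 to 81.4) in Th17-like cells. The WT values of these classes were 55.3 CPM (31.0 to 91.3) from 15 UMIs and 119 CPM (38.6 to 278) from 5 UMIs, too few to order them. Ccr6 is among the leading genes of the naive or central memory T-like cluster, so its height there describes the cluster. At resolution 0.4, where no cluster took that name, Ccr6 was highest in Th17-like cells in A20ZF7. In T cells the level was 26.7 CPM (20.3 to 34.4) in WT and 60.6 CPM (56.6 to 64.9) in A20ZF7, a ratio of 2.27 (1.75 to 3.01). The stromal levels were 4.2 and 23.3 CPM, and with them subtracted the T cell ratio was 1.66. With the T cell classes weighted alike in both genotypes it was 1.6, so the call was lost either way. The ILC ratio of 2.03 (1.5 to 2.8) became 0.878 after subtraction.

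Cxcr3, the receptor of Th1 and cytotoxic lymphocytes for interferon-induced chemokines, was the one receptor called lower in A20ZF7 T cells. Its level there was 72.8 CPM (62.0 to 84.9) in WT and 30.2 CPM (27.4 to 33.2) in A20ZF7, a ratio of 0.415 (0.345 to 0.501), while in stromal cells it was 7.38 and 10.2 CPM. The highest WT classes were γδ T-like cells with 102 CPM (69.1 to 146), Th1 or NKT-like cells with 86.5 CPM (66.9 to 110) and CD8 T-like cells with 69.8 CPM (49.1 to 96.2), whose intervals overlap. In A20ZF7 the CD8 T-like cells had 62.3 CPM (53.0 to 72.8), with Th1 or NKT-like cells next at 40.3 CPM (21.5 to 68.9), an interval that overlaps. The genotype ratio was 0.893 (0.621 to 1.31) in CD8 T-like cells, 0.466 (0.236 to 0.853) in Th1 or NKT-like cells, 0.371 (0.186 to 0.712) in γδ T-like cells and 0.333 (0.234 to 0.472) in ILC3-like cells. Th17-like cells, which made up 4039 of the 15807 A20ZF7 T cells and 52 of the 2315 WT T cells, had 9.39 CPM (6.08 to 13.9) in A20ZF7, at the stromal level. With the classes weighted alike in both genotypes the T cell ratio was 0.590, and thinned to 500 UMIs it was 0.542, both short of 2-fold.

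The ILC3-like ratio of Cxcr3 came with a shift between its 2 clusters. The cluster led by Pcp4, Car2 and Csf2 held 1075 WT and 134 A20ZF7 cells and had 61.3 and 62.1 CPM, a ratio of 1.01 (0.393 to 2.20) from 72 and 7 UMIs. The cluster led by Mapk10 and Fam155a held 236 WT and 3201 A20ZF7 cells and had 51.0 and 18.1 CPM, a ratio of 0.355 (0.186 to 0.733). Of 9 compared receptors 3 were called lower in the latter (Cxcr3, Ccr6 and Cxcr5, against 2.3% of 9171 genes), and of 6 in the former 1 was called higher (Cxcr4, against 2.14% of 6903). With 1 library per genotype, a cluster that is mostly of 1 library and that library cannot be told apart.

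Cxcr4, the CXCL12 receptor of nearly all leukocytes, was highest in macrophage or monocyte-like cells of both genotypes, at 459 CPM (348 to 593) in WT and 407 CPM (356 to 464) in A20ZF7, a ratio of 0.887 (0.662 to 1.21). Treg-like cells came next with 220 CPM (138 to 334) and 247 CPM (224 to 272). In T cells as a whole the level was 81.8 CPM (70.3 to 94.7) and 205 CPM (197 to 212), a ratio of 2.50 (2.15 to 2.92), and in ILCs 58.0 and 121 CPM, a ratio of 2.08 (1.77 to 2.46). Within classes the ratio ran from 1.12 in Treg-like to 2.62 in CD8 T-like cells and 3.99 in ILC2-like cells. In the Hes1-led ILC2-like cluster it was 1.53 (1.07 to 2.27), and the Lgmn-led cluster had 3 A20ZF7 UMIs. The stromal ratio was 4.98, with stromal levels of 12.8 and 64 CPM. With the classes weighted alike the T cell ratio was 1.63, and with the stromal level subtracted it was 2.04 in T cells and 1.26 in ILCs. The 2 ILC3-like clusters differed in direction: Cxcr4 was 68.1 and 213 CPM in the Pcp4-led cluster, a ratio of 3.13 (1.89 to 4.99), and 217 and 114 CPM in the Mapk10-led cluster, a ratio of 0.526 (0.391 to 0.723).

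Ccr1 and Ccr2 are receptors of inflammatory CC chemokines. Ccr1 was highest in macrophage or monocyte-like cells, at 87.0 CPM (43.4 to 156) from 11 UMIs in WT and 115 CPM (88.7 to 147) from 64 UMIs in A20ZF7. In T cells it had 5 UMIs in WT, 2.26 CPM (0.734 to 5.28), and 434 UMIs in A20ZF7, 31.6 CPM (28.7 to 34.7), a ratio of 14 (5.94 to 43.2). Of the 434 UMIs, 192 came from Th17-like cells, where the level was 72.1 CPM (62.3 to 83.0) against a stromal level of 11.5 CPM. In WT Th17-like cells no Ccr1 UMI was found among 52 cells, and 3 UMIs would be 71.4 CPM there, so a difference was not detectable at this depth. Outside the Th17-like class Ccr1 was 9.01 CPM (5.71 to 13.5) in A20ZF7 CD8 T-like cells, at the stromal level, and 30.2 CPM (25.1 to 36.0) in dividing T cells. In ILC3-like cells it was 2.84 CPM (0.773 to 7.27) in WT and 20.9 CPM (15.9 to 26.9) in A20ZF7, a ratio of 7.37 (2.73 to 27.9) beside a stromal ratio of 7.51 (4.2 to 14.8).

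Ccr2 had 107 CPM (93.5 to 121) in WT T cells and 150 CPM (144 to 157) in A20ZF7 T cells, a ratio of 1.41 (1.23 to 1.62) that was 1.01 with the stromal level subtracted. In CD8 T-like cells it was 67.9 CPM (47.5 to 94.0) and 193 CPM (176 to 211), a ratio of 2.84 (2.02 to 4.10), beside stromal levels of 7.76 and 49.9 CPM. WT γδ T-like cells had 202 CPM (153 to 260) and A20ZF7 γδ T-like cells 150 CPM (114 to 193). CD8 T-like cells were thus among the low T cell classes in WT and the highest in A20ZF7, where the interval of Treg-like cells, at 189 CPM (169 to 211), overlaps theirs. The highest WT value, 309 CPM (165 to 529) in Th17-like cells, rests on 13 UMIs. In ILC2-like cells the level was 21.3 and 54.3 CPM, the latter near the stromal level, and within the Hes1-led cluster it was 34.7 and 54.6 CPM, a ratio of 1.57 (0.904 to 2.96) that was not called.

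Ccr7 marks cells on their way to lymph nodes, such as naive and central memory T cells and migrating dendritic cells. In WT it was highest in naive or central memory T-like cells, at 273 CPM (214 to 343), and in A20ZF7 these cells had 77.1 CPM (65.5 to 90.0), a ratio of 0.282 (0.213 to 0.377). A Ccr7 UMI was found in 13.3% of these cells in WT and in 4.62% in A20ZF7, and after thinning in 10.2% and 3.65%. Within WT the level was uneven: mouse 1 had 242 CPM (155 to 360) from 24 UMIs, mouse 2 had 147 CPM (78.5 to 252) from 13 UMIs, and the 102 cells without a hashtag call had 443 CPM (312 to 610) from 37 UMIs. All 3 lie above the A20ZF7 value, the interval of mouse 2 overlapping that of A20ZF7. In the whole T cell class the ratio was 0.720 (0.588 to 0.890). In dendritic cell-like cells Ccr7 had 416 CPM (344 to 499) in A20ZF7, the highest class there, and 155 CPM (56.9 to 337) from 6 UMIs of 15 cells in WT. Ccr7 is among the 10 leading genes of both clusters, so its height in them describes the clusters. No receptor was used to form or name clusters.

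Cxcr5, which takes follicular T cells and B cells to CXCL13, had 56 UMIs in all WT cells and 228 in all A20ZF7 cells. Its highest level was 12.1 CPM (7.03 to 19.3) in WT ILC3-like cells and 12.2 CPM (8.25 to 17.2) in A20ZF7 CD8 T-like cells, above stromal levels of 1.02 and 3 CPM. The T cell ratio of Cxcr5, 2.34 (1.10 to 5.98), rests on 7 WT UMIs, and the stromal ratio was 2.95. With either WT mouse left out the interval of the T cell ratio included 1 (2.39, 0.905 to 8.94, and 2.49, 0.943 to 9.31).

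**Figure D1:**
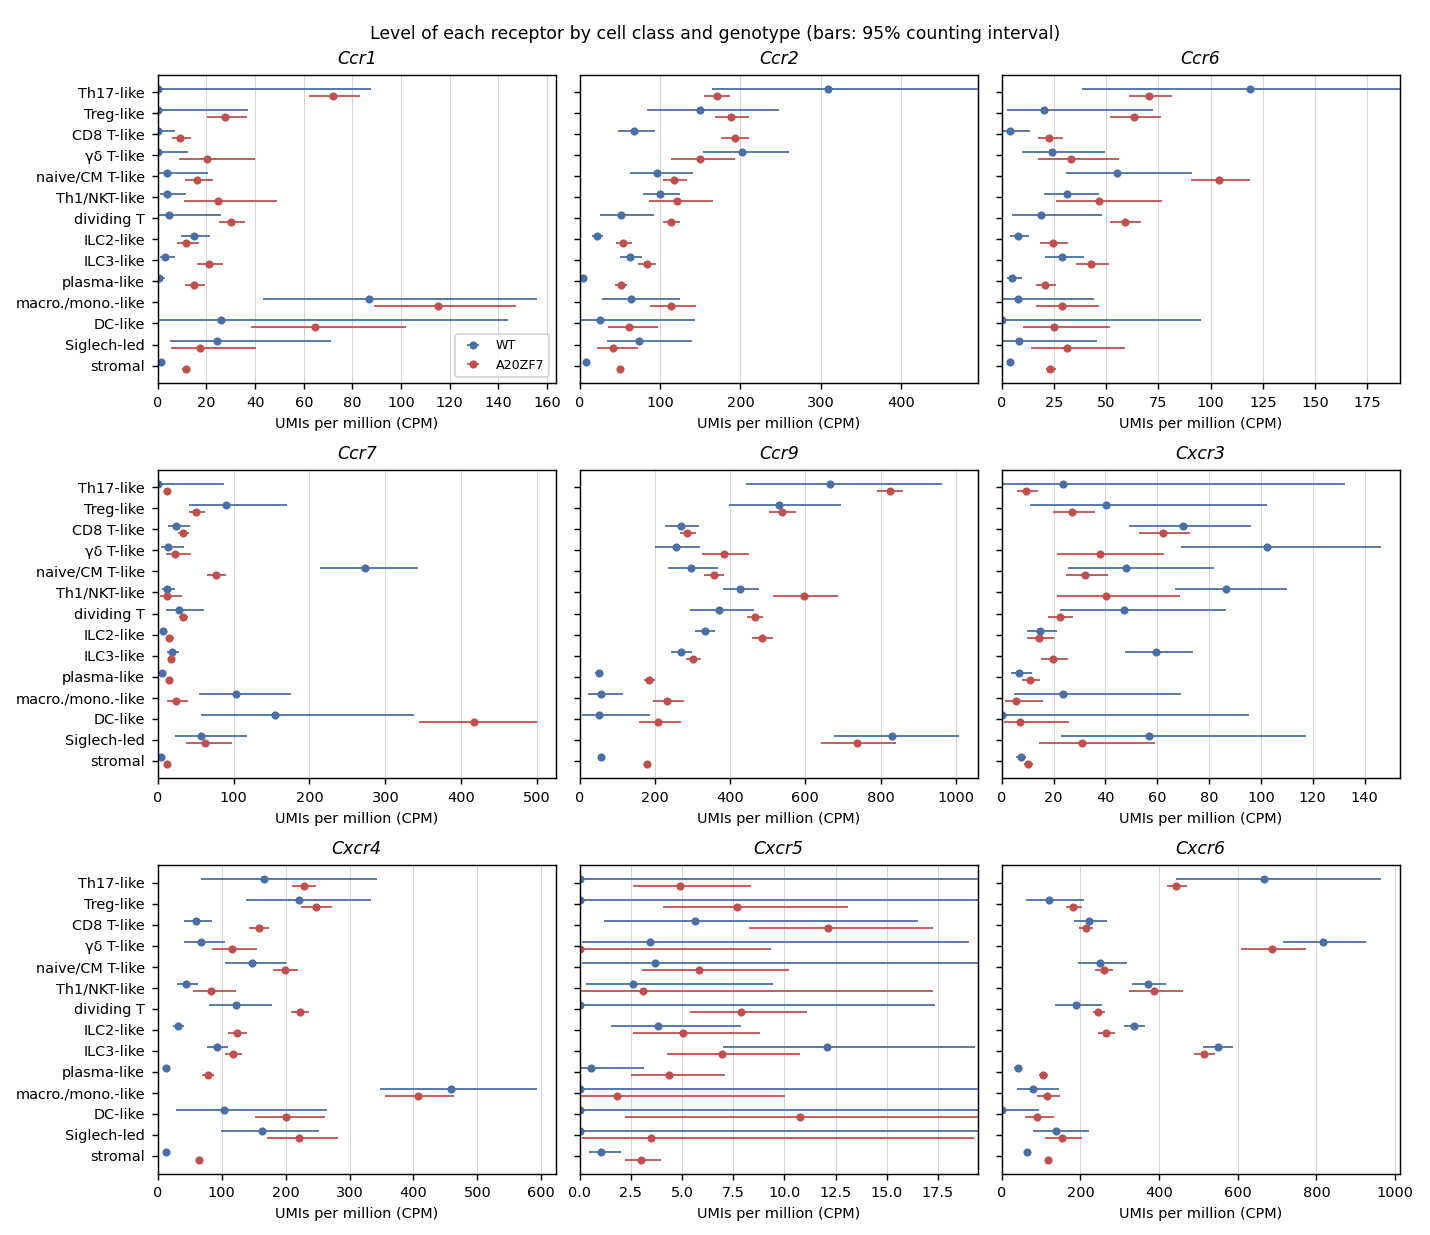
Level of each receptor (x axis, CPM, a separate scale for each gene) in each cell class (y axis) for WT (blue) and A20ZF7 (red), with 95% counting intervals, which run past the right edge where few cells were measured. Ccr9 sits highest in Th17-like and Siglech-led cells, Cxcr6 in γδ T-like cells, Ccr7 in dendritic cell-like and naive or central memory T-like cells and Cxcr4 in macrophage or monocyte-like cells, and the stromal points at the bottom are higher in A20ZF7 for all 9 genes.

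**Figure D2:**
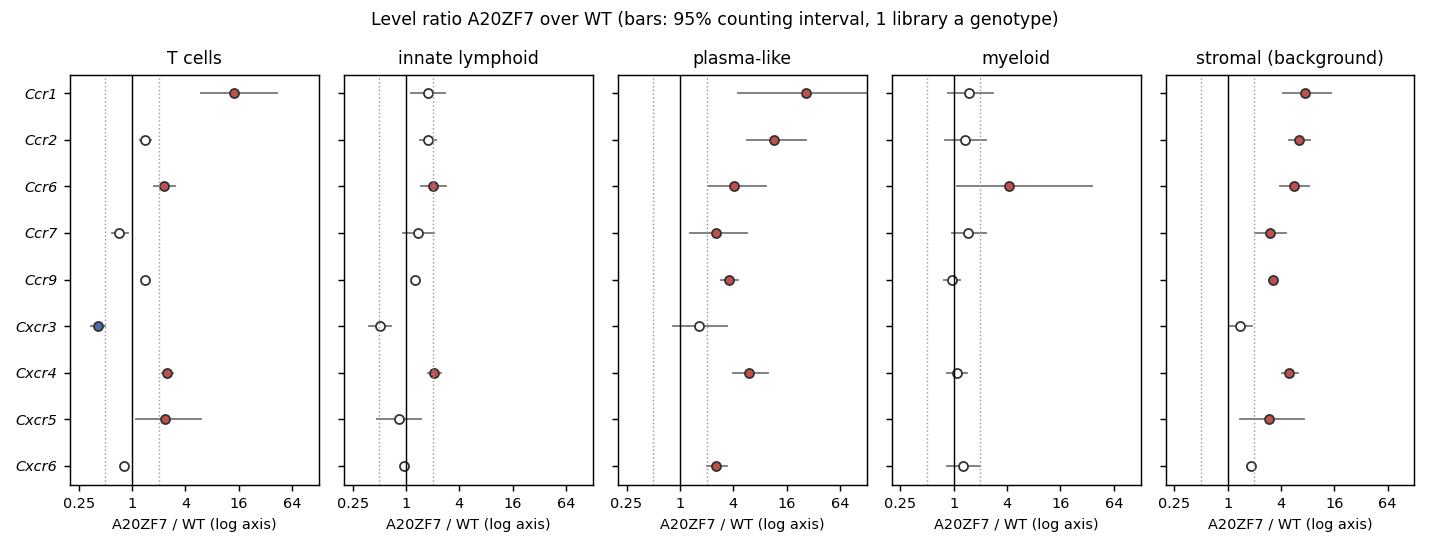
Ratio of the level in A20ZF7 over WT (x axis, log scale) for each receptor (y axis) in 4 lineages and in stromal cells, with 95% counting intervals and dotted lines at 2-fold, for receptors with enough UMIs. Filled points are called higher (red) or lower (blue). Cxcr3 at 0.415 in T cells is the one blue point, and 7 of 9 stromal points are red.

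The spread between animals could be measured in WT alone, through the hashtags. Over 27 pairs of receptor and class with at least 20 UMIs in 1 of the mice, the ratio of mouse 2 to mouse 1 ran from 0.505 to 1.80, none past 2-fold, and its interval excluded 1 in 2 of them. Over 18 pairs of receptor and lineage it ran from 0.556 to 2.14, its interval excluded 1 in 3, and 1 was past 2-fold, Ccr7 in ILCs with 9.55 and 20.4 CPM (ratio 1.01 to 4.83). Pairs with fewer UMIs are left out of these ranges, and some differed more. Ccr7 in ILC2-like cells had 2 UMIs in mouse 1 and 10 in mouse 2, a ratio of 4.89 (1.04 to 45.9). Cxcr3 in T cells was 76.9 CPM in mouse 1 and 78.2 CPM in mouse 2, both above the 30.2 CPM of A20ZF7 (27.4 to 33.2). Cxcr4 in T cells was 61.7 and 90.8 CPM, a ratio of 1.47 (1.03 to 2.11), both below the 205 CPM of A20ZF7. Cxcr6 in T cells was 345 CPM in both. Stromal Cxcr6, by contrast, was 88.1 and 144 CPM, a ratio of 1.63 (1.32 to 2.02).

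**Figure D3:**
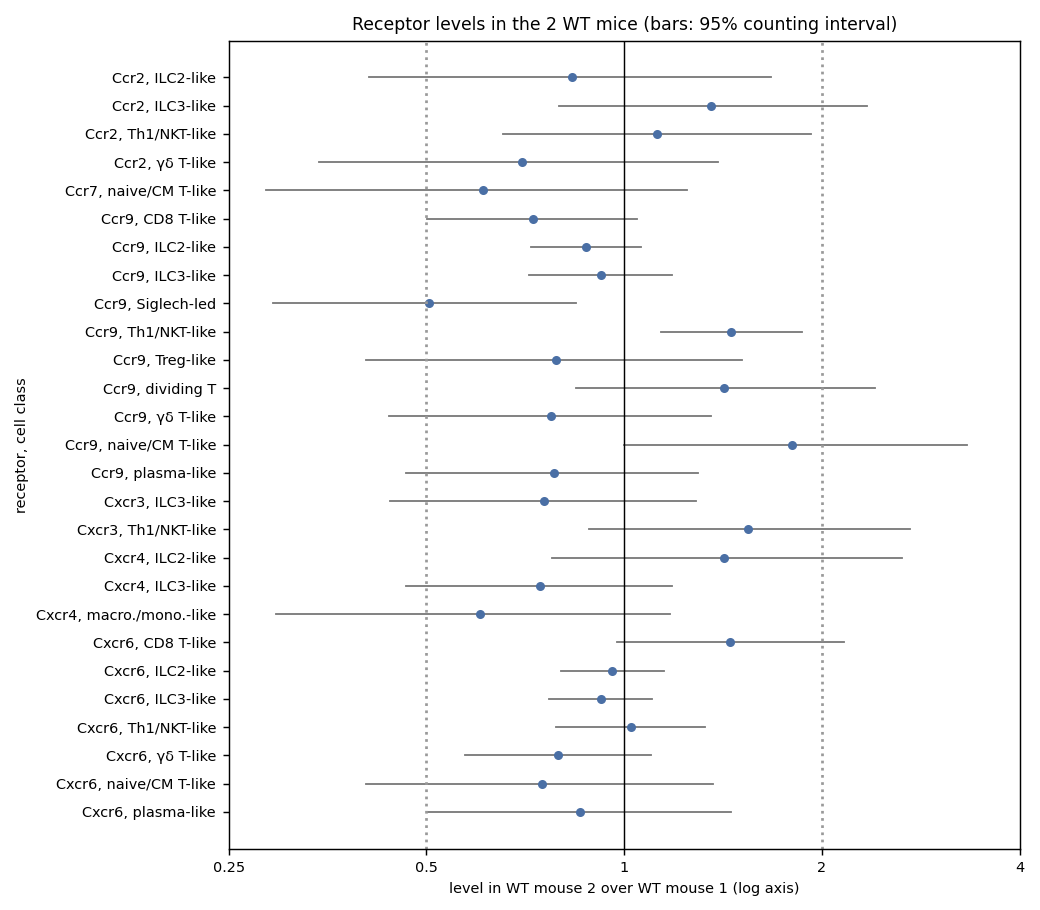
Ratio of the level in WT mouse 2 over WT mouse 1 (x axis, log scale) for each receptor and class (y axis) with enough UMIs, with 95% counting intervals and dotted lines at 2-fold. All 27 points lie between 0.505 and 1.80.

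Few cells showed RNA of several receptors at once. Thinned to 500 UMIs, 19.2% of WT and 16.5% of A20ZF7 Th17-like cells had UMIs of 2 or more receptors, 2.27% and 7.17% of CD8 T-like cells, and 0.349% and 3.14% of plasma-like cells. In A20ZF7 Th17-like cells Ccr6 and Cxcr4 were found together in 21 cells, where 10.4 would be if they were independent, and Ccr6 and Cxcr6 in 8 cells against 17.8. In WT T cells none of the 51 cells with a Ccr7 UMI had a Cxcr6 UMI, where 7.64 would be. These counts are descriptions of sparse data.

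The genes whose level over 28 combinations of class and library was most like a receptor's were Lztfl1 for Ccr9 (Pearson r = 0.937, on log2 of CPM plus 20), Cers4 for Cxcr6 (0.943), Trib2 for Ccr6 (0.890), Adam17 for Cxcr4 (0.890), Actn1 for Ccr7 (0.861), Eif4a2 for Cxcr3 (0.860), Orai1 for Ccr2 (0.850), Dscam for Cxcr5 (0.818) and Siglece for Ccr1 (0.802). They were picked as the highest of 10630 genes, and the points share libraries and depth. Tbx21, which encodes T-bet, came second for Cxcr3 at 0.840. Lztfl1 lies at chr9:123694404-123717625, 49.6 kb before Ccr9 on the same chromosome. Among the receptors themselves Ccr2 and Ccr6 were the most alike pair (0.71) and Ccr1 and Cxcr3 the least (-0.33).

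Several ligands of these receptors were highest in cells outside the lymphocyte classes. Ccl25, the CCR9 ligand, was highest in epithelial cells, at 814 CPM from 1751 UMIs in WT and 158 CPM from 68 UMIs in A20ZF7. The epithelial cells numbered 579 and 335, and those of the genotypes lay mostly in different clusters. The cluster led by Fabp1 and Apoa1 held 496 WT and 80 A20ZF7 cells, at a median of 3875 UMIs. The cluster led by Sprr2a3 and Fabp2 held 83 and 255, at a median of 826 UMIs. The part of this shift in the Ccl25 levels was not tested. Cxcl16, the CXCR6 ligand, was highest in macrophage or monocyte-like cells (498 and 281 CPM), and Cxcl12, the CXCR4 ligand, in stromal cells (719 and 495 CPM). Ccl21a was highest in endothelial cells (171 and 243 CPM). The monocyte ligands Ccl6 (1621 and 391 CPM) and Ccl8 (1044 and 688 CPM) were highest in macrophage or monocyte-like cells.

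Ccl20, the CCR6 ligand, was highest in Th17-like cells themselves, at 1071 CPM from 45 UMIs in WT and 314 CPM from 837 UMIs in A20ZF7, and Cxcl10 in γδ T-like cells (584 and 185 CPM). Both are among the genes that lead these clusters. Ccl5, a ligand of CCR1, was highest in CD8 T-like cells (16210 and 17470 CPM). It is among the marker genes that named this class and leads its cluster, so its height there describes the class. Of 18 listed ligands present in both libraries, 14 could be compared in T cells: 2 were called higher in A20ZF7, Ccl20 (42.5 and 138.5 CPM, a ratio of 3.26, 2.65 to 4.05) and Ccl8 (1.36 and 7.64 CPM, below the stromal level), and 2 lower, Ccl4 (932 and 405 CPM) and Cxcl10 (145 and 64.2 CPM). Ccl20 was 1.53 CPM in WT and 37.9 CPM in A20ZF7 stromal cells. Within Th17-like cells, by contrast, Ccl20 was lower in A20ZF7 (1071 and 314 CPM). Th17-like cells made up 52 of the 2315 WT T cells and 4039 of the 15807 A20ZF7 T cells. The part of these class shares in the T cell ratio of Ccl20 was not tested. In ILCs 9 could be compared, with Ccl20 (2.16 and 49.0 CPM) and Ccl8 (1.23 and 5.15 CPM) higher and Ccl3 (74.4 and 21.0 CPM) and Ccl4 (491 and 225 CPM) lower. The median ratio of the compared ligands was 1.29 in T cells and 1.12 in ILCs.

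**Figure D4:**
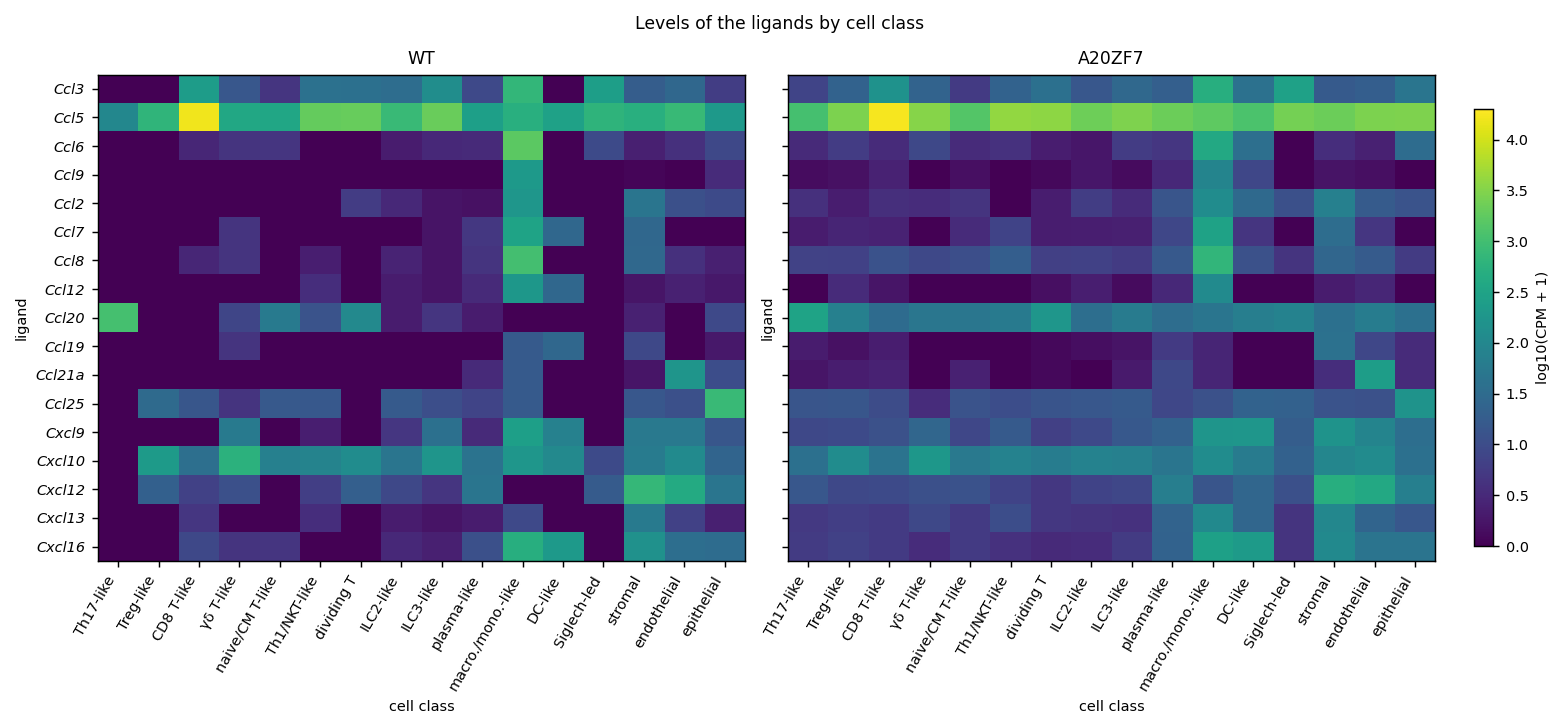
Level of 17 ligands (y axis) in each cell class (x axis) in WT (left) and A20ZF7 (right), as log10 of CPM plus 1. Each ligand has its brightest cells in a few columns: Ccl25 in epithelial cells, Cxcl12 in stromal cells, Ccl21a in endothelial cells, Ccl20 in Th17-like cells and Ccl6, Ccl8, Ccl9 and Ccl12 in macrophage or monocyte-like cells.

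Of the 21 other chemokine and homing receptors, 12 could be compared in T cells, with 2 called higher in A20ZF7 and 1 lower. Cx3cr1 (2.26 and 5.82 CPM) and Ackr3 (8.14 and 19.1 CPM) were those called higher. Ackr3 lay below its stromal levels of 90.2 and 67.8 CPM. In ILCs 11 could be compared, with 1 called higher and 1, Ccr4, lower (62.0 and 20.2 CPM, a ratio of 0.326, 0.255 to 0.414). Ccr4, a receptor of type 2 lymphocytes, was highest in ILC2-like cells in WT, at 98.2 CPM. The integrin chains of gut homing, Itga4 and Itgb7, were not called in T cells or ILCs. Ccr10, which brings plasma cells to mucosal CCL28, was highest in plasma-like cells (61.7 and 48.1 CPM).

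The surface of WT cells was read with antibodies that carry DNA barcodes, 4 of them against these receptors. Their barcodes of 15 bases are shown because the surface counts below are counts of these sequences.
CCR2 antibody: agtgcgatctgcaac
CCR7 antibody: ttattaacagcccac
CXCR3 antibody: gttcacgccgtgtta
CXCR5 antibody: acgtagtcacctagt
The 3 deposited files of the A20ZF7 antibody library are identical to those of WT, and WT barcodes carry a median of 2079 antibody UMIs in them while A20ZF7 barcodes carry 48, so surface values are given for WT alone. The CCR2 antibody had a mean of 89.8 UMIs per cell in T cells, 86.2 in ILCs and 91.6 in stromal cells, whose Ccr2 RNA was 7.76 CPM. The CXCR3 antibody had 48.8, 46.6 and 50.4, the CCR7 antibody 21.5, 20.6 and 22.3, and the CXCR5 antibody 32.0, 31.0 and 32.4. All 4 exceeded the highest isotype control, 5.64 in T cells, but none separated lymphocytes from stromal cells. The CD3 antibody did not either, with 19.2 in T cells and 17.4 in stromal cells, whereas the IA antibody (MHC class II) had 122 in macrophage or monocyte-like cells and 6.09 in stromal cells. Within CD8 T-like cells the CXCR3 antibody had a median of 48.5 UMIs in the 36 cells with a Cxcr3 UMI and 39.5 in the 536 cells without, at median antibody totals of 1661 and 1658. Within ILC3-like cells it had 49.0 in 80 cells and 39.0 in 1231 cells, at totals of 1897 and 1636. The CCR2 antibody had 98 and 73.5 in naive or central memory T-like cells with and without a Ccr2 UMI, at totals of 1880 and 1650. In ILC2-like cells it had 86 and 71, at totals of 1892 and 1544. Some pairs of medians lay closer: the CXCR3 antibody had 41.5 and 42 in γδ T-like, 42 and 40 in Th1 or NKT-like and 39.5 and 38.0 in ILC2-like cells. In the opposite direction, the CCR2 antibody had 68.5 in ILC3-like cells with a Ccr2 UMI and 73.0 in those without, and the CXCR5 antibody 21.0 and 26.0 in ILCs with and without a Cxcr5 UMI.

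**Figure D5:**
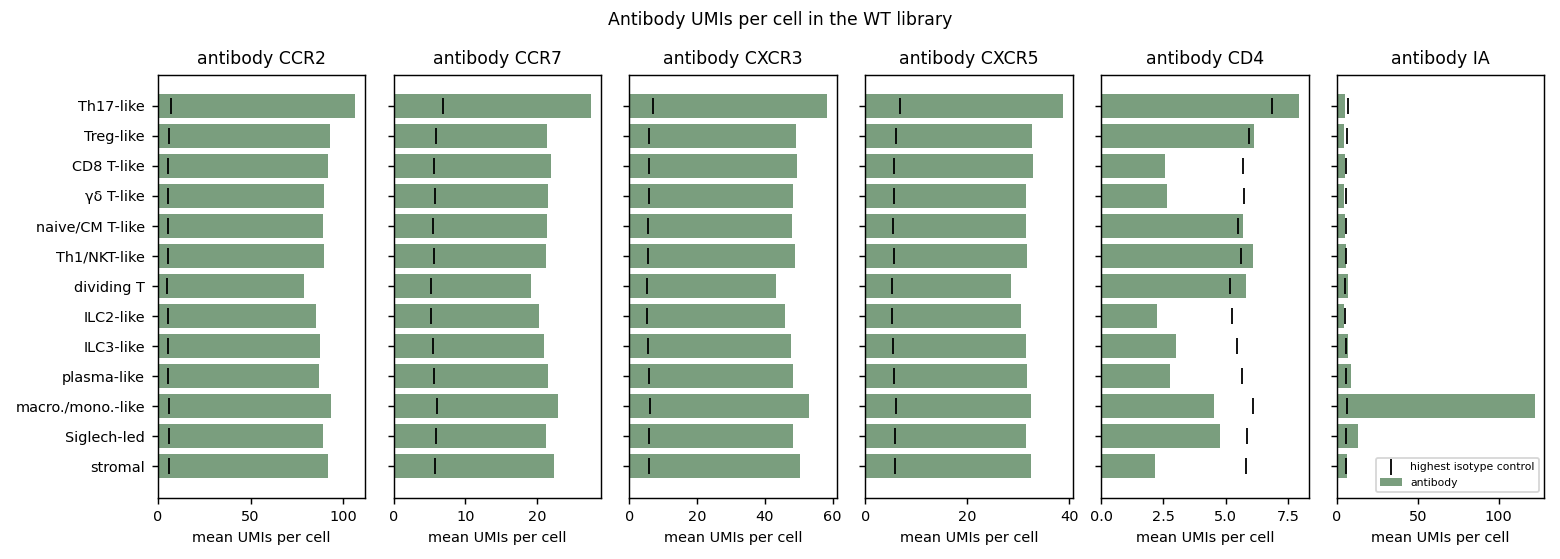
Mean UMIs per WT cell (x axis) of 4 antibodies against the receptors and of CD4 and IA antibodies, by class (y axis), with the highest isotype control as a black tick. The 4 receptor antibodies have bars of like length in every class, stromal cells included, whereas CD4 is longer in CD4 T cell classes and IA in macrophage or monocyte-like cells.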

How the data were processed

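Per the file headers, the deposited gene expression files hold raw UMI counts per gene and barcode for every barcode, 1 library per genotype and 2 mice per library. The submitters' processing notes name Cell Ranger 7.1, R 4.3.3, Seurat 4.3 and mm10, while the gene expression headers name version 8.0.0 and the antibody headers 7.1.0. The deposited antibody files hold counts of 138 antibodies and 4 hashtags.

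Barcodes with at least 200 genes (28848 WT, 52626 A20ZF7) were kept above 675 UMIs in WT and 396 in A20ZF7, with at most 2500 genes and 15% mitochondrial UMIs. WT cells with both hashtags (2572) were removed. No hashtag call could be made for A20ZF7, since its antibody files equal those of WT. A Scrublet score above 0.25 marked 8.57% of WT and 10.5% of A20ZF7 cells, which were left in and removed as an alternative. The libraries shared 913 barcodes. Cells were clustered in R 4.3.3 with Seurat 5.3.0 (2000 variable genes without the receptors, 30 components, resolution 0.8) and clusters named from marker lists. UMIs were summed per class with exact Poisson intervals, ratios have exact conditional intervals, and all cover counting error only. A side without a UMI was set to 3 UMIs, which makes its ratio a bound. Scripts ran in Python 3.11.15 and were tested on simulated data. With 1 library per genotype no test between genotypes was possible.

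Named genes were the 9 receptors, the ligands and other receptors called in T cells or ILCs, each receptor's ligands with their highest class, the genes most like each receptor and those leading clusters. Some genes that this rule names are not reported here. Members and lists were chosen with earlier results of these data known. Promoter sequences are from RefSeq on GRCm38.p6, whose table held 7 of the 9 receptors (not Ccr7 and Cxcr5).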

Additional observations from a re-analysis of the deposited data

Results flagged for a closer look

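Ccr7 differed between genotypes in opposite directions in different classes. The ratio of A20ZF7 over WT was 0.282 in naive or central memory T-like cells, against 2.31 in ILC2-like, 2.58 in plasma-like and 2.69 in dendritic cell-like cells. The ILC2-like cells of the genotypes lay mostly in different clusters, and in the cluster led by Hes1 the Ccr7 ratio was 2.08 (0.657 to 10.6) from 3 WT UMIs, not called. The ILC2-like value rests on 12 WT UMIs. Its level was 2.93 CPM in WT mouse 1 and 14.3 CPM in WT mouse 2, beside 15.15 CPM in A20ZF7. The dendritic cell-like value rests on 6 WT UMIs, and the stromal ratio of Ccr7 was 3. With 1 library per genotype the difference between these classes was not tested.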

How the results depend on the processing

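Of 506 alternative values of 33 receptor ratios, 438 moved by less than their counting interval, 66 moved further and 2 were counted as reversed: Ccr6 in ILCs was 0.878 with the stromal level subtracted, and Ccr6 in myeloid cells was 0.748 after thinning to 500 UMIs, with WT at the floor. Other ratios crossed 1 in some alternative without being counted as reversed. In ILCs the values ran from 0.661 to 1.92 for Ccr1, from 0.638 to 2.81 for Ccr2, from 0.551 to 4.81 for Ccr7 and from 0.825 to 1.36 for Ccr9. In myeloid cells those of Ccr2 ran from 0.567 to 2.04. The cause of these shifts was not tested.

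In T cells the 4 receptors called higher became 1 with at least 1000 UMIs per cell and 2 with the stromal level subtracted or with the classes weighted alike, and 3 to 3 with a WT mouse left out. The 1 called lower became 0 after thinning or with the classes weighted alike. In ILCs the 2 called higher became 4 at resolution 0.4, 1 with a limit of 5000 genes, with the receptors in the clustering or after thinning, and 0 with the stromal level subtracted or the classes weighted alike. The 0 called lower became 1 with a limit of 5000 genes, the receptors in the clustering, the stromal level subtracted, the classes weighted alike or hashtag-called WT cells alone, and ranged from 0 to 1 with a WT mouse left out. In plasma-like cells the 7 called higher became 2 with marker gates, 4 after thinning and 0 with the stromal level subtracted. In myeloid cells the 1 called higher became 3 with marker gates and 0 with at least 1000 UMIs, resolution 0.4, thinning, the stromal level subtracted or either WT mouse left out (0 to 0), and the 0 called lower became 1 with no minimum of UMIs. At resolution 0.4 no cluster was named γδ T-like, naive or central memory T-like or Th1 or NKT-like. Receptors highest in such a class could therefore not keep it. An unnamed cluster there, led by Pcp4, Cd163l1 and Trdc, held 1406 WT and 612 A20ZF7 cells outside the ILC and T cell classes. The highest class was kept for 8 of 18 receptor and library pairs at that resolution. It also changed for receptors whose class was still named there. Ccr2 and Ccr6 in WT moved from Th17-like to Treg-like and ILC3-like cells. Ccr9 in A20ZF7 moved from Th17-like cells to the Siglech-led cluster. Ccr2 and Cxcr5 in A20ZF7 moved from CD8 T-like to Treg-like and dendritic cell-like cells. Marker gates gave no highest class. Weighting the classes alike, dropping dividing or unnamed clusters, plasma-like cluster 15 alone and hashtag-called WT cells alone were chosen after seeing the data.

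No paired analysis was possible because each genotype is 1 library. Depth limits small WT classes, such as the 52 Th17-like, 15 dendritic cell-like and 7 mast cell-like cells.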
